A study of Mus musculus with 42 samples.

Results

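The dopamine genes described here were 8 of the 37907 genes in the deposited table, taken by name: Th, Ddc and Gch1 for synthesis, Slc18a2 and Slc6a3 for transport, and the receptors Drd1, Drd2 and Prlr. Prlr, the prolactin receptor, was included because the dopamine neurons of the arcuate nucleus respond to prolactin. All 8 passed the filter on low values described below. The animals were male C57/BL6 mice, all wild type, with food freely available (fed) or withheld over 24 hours (fasted), and RNA was sequenced from 4 hypothalamic nuclei of each state. The nuclei were the arcuate nucleus (ARC, 5 fed and 5 fasted libraries), the ventromedial hypothalamus (VMH, 6 and 6), the dorsomedial hypothalamus (DMH, 5 and 4) and the paraventricular nucleus (PVN, 6 and 5).

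Dopamine is made from tyrosine in a pair of steps, catalysed by tyrosine hydroxylase and aromatic amino acid decarboxylase, and is then loaded into vesicles and taken back up after release by dedicated transporters. In the hypothalamus, tuberoinfundibular dopamine neurons of the ARC send dopamine through the portal vessels to the pituitary, where it acts on the D2 receptor and restrains prolactin release. Prolactin acts back on these neurons through its own receptor. Other dopamine neurons and other cells that hold tyrosine hydroxylase lie near the ventricle, in and around the PVN, and dorsal to the DMH.

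Expression was given in RPKM, a read count scaled to the length of the gene and the depth of the library. Comparisons of level between genes depend on the gene lengths used and on the batch adjustment described below. The table held no zeros, because a count had been added to every gene, and the reads behind each value were worked back from it. They came out whole in every library, within a tolerance of 0.05 reads, for all of the 8 genes except Prlr, for which RPKM alone are given. The estimated depth was 4.57 M reads (M for mega) on average and ranged from 1.33 to 13.2 M. In the DMH, fasted libraries were deeper than fed ones, at 7.38 ± 4.004 against 3.91 ± 0.862 M reads (SD, n = 4 and 5, exact permutation p = 0.0238). Libraries fell into 3 batches of 10, 16 and 16 by their shared no-read values, and batch 1 held 0 fasted DMH libraries. Tests were limma on log2(RPKM + 1) over 33579 genes, with an adjusted p under 0.1 as the threshold, and all log2 differences below are on that scale with their standard error (SE). In tissue of this kind, fewer cells of a type and less RNA per cell cannot be told apart.

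Promoter windows of 3 genes are shown first: Th, the rate-limiting enzyme, which set the VMH apart, and the transporters Slc18a2 and Slc6a3. They were picked after their levels and motifs were known. All 8 genes had a RefSeq window (12 windows in GRCm38.p6, since some genes have several starts), running from 250 bases before the annotated start to 50 bases after it, on the strand of the gene. Each was searched on both strands for TGACGTCA (the cAMP response element, a palindrome), TATAAA (the TATA box) and AAAGGTCA (a site bound by Nr4a receptors such as Nurr1). Capitals mark TGACGTCA, the one of these motifs found in the windows printed here.
Th, chr7:142899946-142900245, minus strand: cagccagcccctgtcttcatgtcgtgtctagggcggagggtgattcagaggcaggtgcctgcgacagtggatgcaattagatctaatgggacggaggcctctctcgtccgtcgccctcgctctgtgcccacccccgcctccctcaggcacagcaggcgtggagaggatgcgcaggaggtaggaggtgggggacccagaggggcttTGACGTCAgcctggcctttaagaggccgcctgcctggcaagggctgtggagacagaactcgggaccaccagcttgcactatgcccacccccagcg
Slc18a2, chr19:59260628-59260927, plus strand: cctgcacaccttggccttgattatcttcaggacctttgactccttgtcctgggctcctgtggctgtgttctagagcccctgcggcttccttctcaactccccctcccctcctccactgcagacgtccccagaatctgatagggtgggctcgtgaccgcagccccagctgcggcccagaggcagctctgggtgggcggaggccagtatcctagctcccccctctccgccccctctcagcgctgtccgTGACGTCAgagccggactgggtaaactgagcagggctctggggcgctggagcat
Slc6a3, chr13:73536497-73536796, plus strand: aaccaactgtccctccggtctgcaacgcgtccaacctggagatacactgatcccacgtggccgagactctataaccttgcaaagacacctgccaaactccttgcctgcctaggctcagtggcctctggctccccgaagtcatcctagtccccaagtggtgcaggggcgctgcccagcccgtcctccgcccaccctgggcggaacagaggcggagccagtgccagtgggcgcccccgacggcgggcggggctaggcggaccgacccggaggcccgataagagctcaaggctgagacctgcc
TGACGTCA was present in the windows of Th and Slc18a2, 2 of the 8 genes and 2 of their 12 windows, against 1.79% of all 32851 windows. It began at position -45 from the start in Th and at position -4 in Slc18a2, where it runs across the start. TATAAA was in 1 window each of Ddc and Gch1, 2 of the 12, which is near the 13.6% of all windows. AAAGGTCA was in 1 gene, Ddc, where it overlaps the TATA box, against 1.51% of all windows. These matches describe the letters only.

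Every one of the 8 genes differed between the nuclei. In fed mice all 8 passed the test over the 4 nuclei (limma F, adjusted p from 5.66e-12 for Th to 0.0602 for Drd2), where 12.4% of all genes passed. Drd2 lost this call without DMH library 1 (adjusted p = 0.153) or VMH library 3, 4 or 5 (0.106, 0.112 and 0.102). In fasted mice all 8 passed again (adjusted p from 9.23e-13 for Th to 0.0324 for Ddc), against 11.9% of all genes. Ddc lost this call without PVN library 5 (adjusted p = 0.124). Each nucleus was then set against the mean of the other 3. In fed mice the ARC had 6 of the 8 genes past the threshold (4.62% of all genes), the VMH 5 (9.82%), the DMH 2 (2.34%) and the PVN 6 (5.76%). In fasted mice the ARC had 6 (5.55% of all genes), the VMH 6 (9.43%), the DMH 3 (1.67%) and the PVN 4 (5.39%). The 6 fed ARC genes were all higher than elsewhere. The batches were inferred from the values, and all 38 of these calls kept their direction within every batch that held all 4 nuclei.

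**Figure D1:**
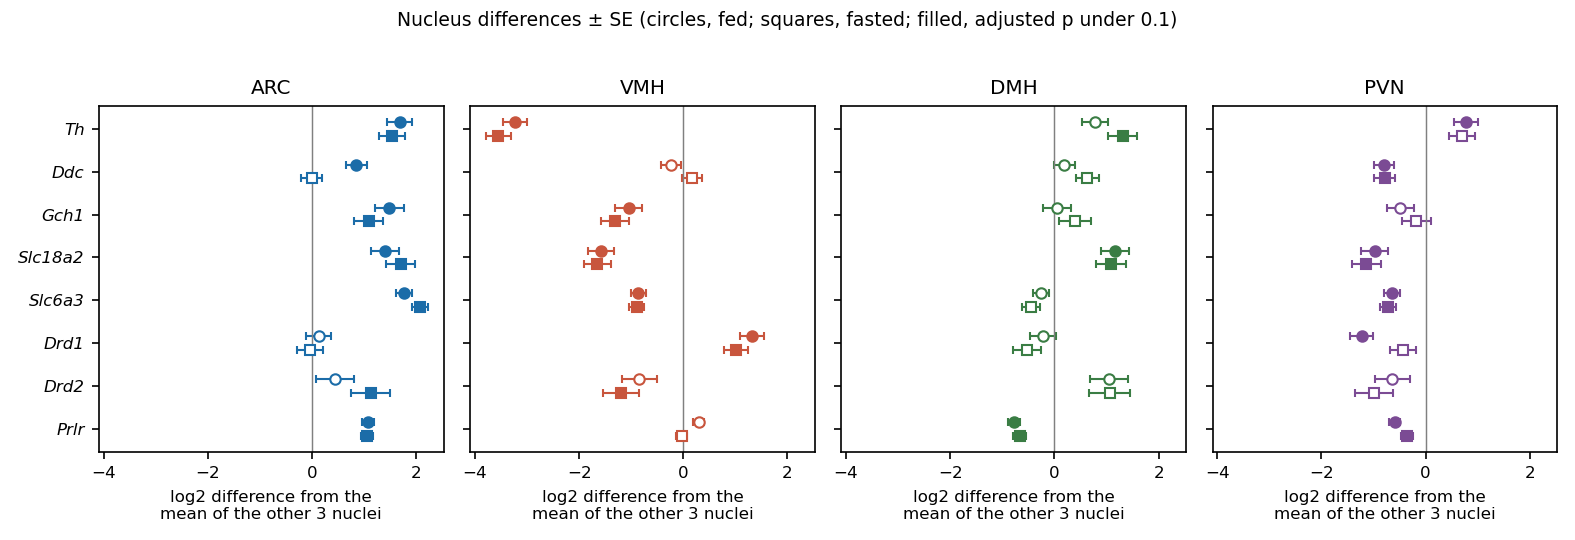
Difference of each nucleus from the mean of the other 3, on the log2(RPKM + 1) scale, for the 8 genes in fed (circles) and fasted (squares) mice. Bars are SE and filled symbols have an adjusted p under 0.1. The ARC symbols of Th, Gch1, Slc18a2, Slc6a3 and Prlr sit above 1 in both states, while Th in the VMH sits below -3.

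Th, tyrosine hydroxylase, the rate-limiting enzyme of catecholamine synthesis (chromosome 7, 142892752 to 142931128, GRCm38, minus strand), separated the VMH from every other nucleus. In the 5 fed ARC libraries it stood at 39.1, 13.1, 22.7, 28.5 and 25.2 RPKM. In the 5 fed DMH libraries it stood at 17.1, 13.4, 13.8, 14.8 and 15.7 RPKM. In the 6 fed PVN libraries it ranged from 6.45 through a median of 13.6 to 40.6 RPKM. The fed VMH lay below all of these, with a lowest value of 0.429, a median of 0.745 and a highest of 2.84 RPKM, without overlap. In reads, the fed VMH libraries held 0 to 14 reads of Th, and the fasted ones 0 to 3, whereas no library of the other nuclei held fewer than 58. The difference between the VMH and the other nuclei was -3.23 ± 0.23 in fed mice (adjusted p = 7.49e-13) and -3.55 ± 0.24 in fasted mice (adjusted p = 1.41e-13). Within batches 1, 2 and 3 the fed difference was -3.35, -2.82 and -3.66.

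The ARC held the most Th. It exceeded the other nuclei by 1.68 ± 0.25 in fed mice (adjusted p = 1.21e-05) and by 1.54 ± 0.25 in fasted mice (adjusted p = 5.98e-05). In fed mice the neighbouring levels of ARC and DMH differed (exact permutation p = 0.0476), and those of DMH and PVN did not differ beyond their spread (exact permutation p = 0.978). In fasted mice p was 0.413 for ARC against DMH and 0.0159 for DMH against PVN (exact permutation). This is no evidence of a change with state, since no fasting change of Th passed, nor did its interaction. The fed PVN call rested on few libraries. Its difference was 0.77 ± 0.23 (adjusted p = 0.0487), and it was 0.49 (adjusted p = 0.299) without library 1, the one at 40.6 RPKM. The call was also lost without library 2 (0.74, adjusted p = 0.110) or library 5 (0.65, adjusted p = 0.171).

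Ddc, aromatic amino acid decarboxylase, which turns DOPA into dopamine and also makes serotonin from its precursor (chromosome 11, 11814101 to 11898144), did not follow Th. It was read in every library of every nucleus. In the VMH, where Th was near its no-read value, Ddc reached 7.75 ± 3.23 RPKM in fed mice (SD, n = 6), with a lowest of 4.27, a median of 7.43 and a highest of 13.5 RPKM. Ddc exceeded Th in 12 of 12 VMH libraries. Together these held 1335 reads of Ddc and 36 of Th, and 10 of the 12 held at most 3 reads of Th, so the RPKM of Th there is set largely by the added count. In RPKM, Th exceeded Ddc in all 30 libraries of the other nuclei. Their annotated exon lengths are 4461 bases for Ddc and 2364 for Th. In reads, Ddc exceeded Th in the fed ARC (1410 against 1348) and the fed DMH (900 against 690). Th held more reads in the other groups outside the VMH. For Ddc the fed ARC was the highest, at 20.4, 9.81, 12.2, 13.98 and 13.4 RPKM. This put it 0.85 ± 0.20 above the other nuclei (adjusted p = 0.00842). The fed PVN was the lowest, 0.80 below the others (log2 difference -0.80 ± 0.19, adjusted p = 0.00650). In fasted mice the ARC did not stand apart, with a difference of -0.01 ± 0.21 (adjusted p = 1), and the PVN was low at -0.79 ± 0.21 (adjusted p = 0.0183). This is no evidence of a change with state. The fasting change of Ddc in the ARC did not pass (limma, adjusted p = 0.277), nor did its interaction.

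Gch1, GTP cyclohydrolase, which starts the synthesis of tetrahydrobiopterin, the cofactor of tyrosine hydroxylase (chromosome 14, 47153895 to 47189413), was highest in the ARC and lowest in the VMH. The 5 fed ARC libraries were at 10.51, 4.59, 10.3, 9.64 and 3.52 RPKM. The fed VMH ranged from 0.331 through a median of 1.09 to 3.83 RPKM, on 0 to 13 reads. The highest VMH library therefore overlapped the lowest ARC library. The ARC lay 1.48 ± 0.27 above the other nuclei in fed mice (adjusted p = 0.000456) and 1.09 ± 0.28 in fasted mice (adjusted p = 0.0151). The fasted ARC libraries were at 4.72, 3.97, 8.34, 4.28 and 3.35 RPKM, and the fasted VMH reached at most 1.01 RPKM, below all of them. The VMH lay at -1.04 ± 0.26 (adjusted p = 0.00632) and -1.31 ± 0.26 (adjusted p = 0.000630). DMH and PVN sat between, and their levels did not differ beyond their spread in fed or fasted mice (exact permutation p = 0.305 and 0.206).

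Slc18a2, the vesicular monoamine transporter VMAT2, which fills vesicles with dopamine, noradrenaline, serotonin or histamine (chromosome 19, 59260896 to 59296012), was abundant in the ARC and the DMH. The 5 fed ARC libraries were at 18.6, 13.7, 10.3, 17.1 and 20.4 RPKM. The 5 fed DMH libraries were close together, at 14.6, 13.4, 13.03, 12.99 and 14.3 RPKM. The fed PVN reached only 5.62 RPKM in its highest library and the fed VMH 3.91 RPKM, so neither overlapped the ARC or the DMH. In fasted mice the levels were 18.6 ± 12.9 RPKM in the ARC, 11.9 ± 3.14 in the DMH, 3.16 ± 1.46 in the PVN and 2.35 ± 1.60 in the VMH (SD, n = 5, 4, 5 and 6). The DMH exceeded the PVN in both states without overlap (exact permutation p = 0.00216 in fed mice, and 0.00794 in fasted mice, the smallest that comparison allows). Against the other 3 nuclei the ARC lay at 1.40 ± 0.27 (adjusted p = 0.000641) in fed mice and 1.698 ± 0.27 (adjusted p = 4.89e-05) in fasted mice. The DMH lay at 1.16 ± 0.27 (adjusted p = 0.0133) and 1.09 ± 0.29 (adjusted p = 0.0567). The fasted DMH call was lost without DMH library 2, 3 or 4 (adjusted p = 0.113, 0.124 and 0.177), with depth as a covariate (adjusted p = 0.105) or with the replicate block (adjusted p = 0.155).

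Hdc, which makes histamine, stood highest in the DMH, 1.93 above the other nuclei in fed mice (adjusted p = 4.43e-08) and 1.49 in fasted mice (adjusted p = 3.91e-05). Its level was 7.58 ± 1.39 RPKM in the fed DMH (SD, n = 5). Of the other 6 markers of monoamine cells, Tph2 and Slc6a4 (serotonin) and Dbh and Slc6a2 (noradrenaline) had means below 1 RPKM in all 8 groups, while Fev and Pnmt reached 1.98 and 3.46 RPKM in their highest VMH libraries. The summed level of the 7 ranged from 9.86 to 13.1 RPKM in the fed DMH, against 3.37 to 6.56 in the fed ARC. The part of histamine cells in the Slc18a2 level was not tested.

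Slc6a3, the plasma membrane dopamine transporter, which takes released dopamine back up (chromosome 13, 73536747 to 73578672), stood apart in the ARC. The 5 fed ARC libraries were at 6.02, 5.76, 4.17, 5.02 and 3.24 RPKM. The 5 fasted ARC libraries were at 3.75, 3.27, 7.53, 8.08 and 5.51 RPKM. No other library of either state exceeded the 2.01 RPKM of a fed DMH library, so the ARC stood clear of all the rest. In reads, ARC libraries held 38 to 175 and the others 0 to 19. The 6 fasted VMH libraries together held 2 reads, and 4 of them held 0. Among all genes, 0.256% had their lowest fed ARC library above every fed library of the other nuclei, and of the 8 genes Slc6a3 alone did. In fasted mice the share was 0.339%, and Slc6a3 and Prlr did. The ARC difference was 1.77 ± 0.15 in fed mice (adjusted p = 2.35e-10) and 2.06 ± 0.16 in fasted mice (adjusted p = 8.57e-12). Within batches it was 1.85, 1.87 and 1.63 in fed mice, and 1.99 and 2.39 in batches 2 and 3 in fasted mice.

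The combination of synthesis and transport genes thus differed by nucleus. The ARC held Th, Ddc, Gch1, Slc18a2 and Slc6a3 together. The DMH held Th, Ddc, Slc18a2 and Gch1 (10 to 204 reads in a library) with 0 to 19 reads of Slc6a3. The PVN held Th, at 17.6 ± 12.6 RPKM in fed mice, and Ddc on 29 to 181 reads. Gch1 in the PVN was on 0 to 59 reads and Slc18a2 on 22 to 108 reads. Over both states Slc18a2 averaged 3.67 RPKM in the PVN, against 17.3 in the ARC and 12.9 in the DMH. The log2 ratio of Slc18a2 to Th in the PVN was -2.14 ± 0.686 (SD, n = 11). It was -0.58 ± 0.704 in the ARC (n = 10) and -0.44 ± 0.596 in the DMH (n = 9). The VMH held Ddc with at most 14 reads of Th in a library, Slc18a2 on 0 to 82 reads and Gch1 on 0 to 13. These levels are from whole nuclei, so which cells share the genes was not measured.

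**Figure D2:**
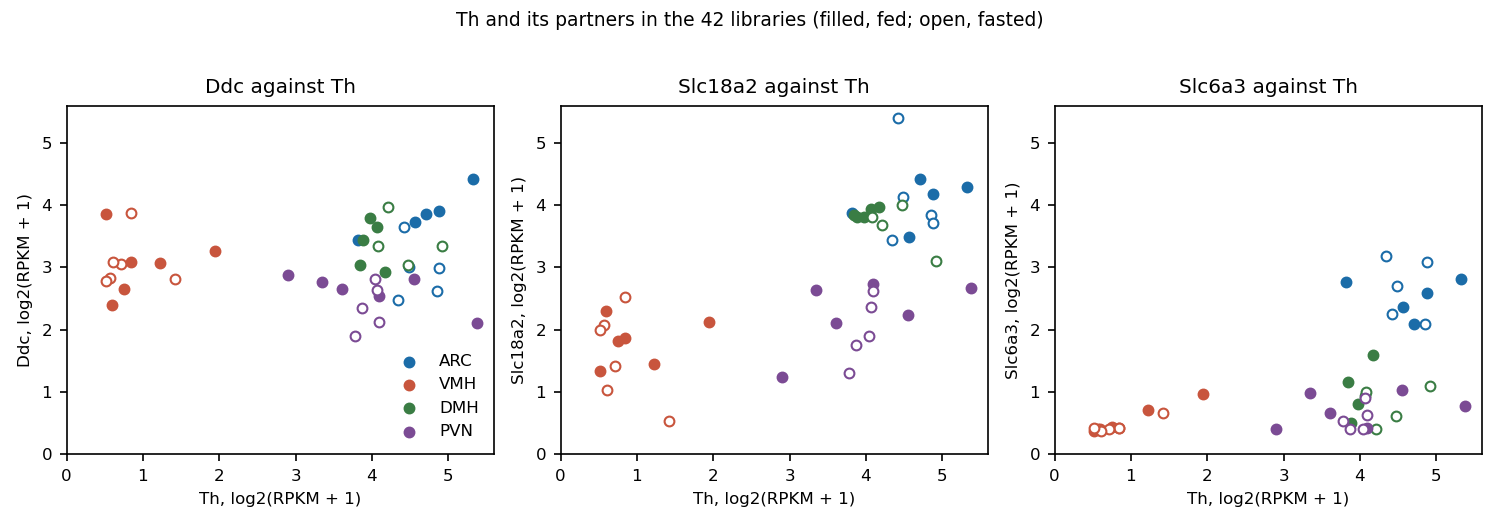
Level of Ddc, Slc18a2 and Slc6a3 against that of Th in each of the 42 libraries, all on the log2(RPKM + 1) scale, coloured by nucleus, with fed libraries filled and fasted ones open. VMH libraries hold Ddc at about the height of the other nuclei although Th is low. PVN libraries hold Th with less Slc18a2 than ARC and DMH libraries, and ARC libraries alone rise in Slc6a3.

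The receptors were arranged differently. Drd1, the receptor that raises cAMP (chromosome 13, 54051183 to 54055705), was highest in the VMH. The 6 fed VMH libraries ranged from 3.10 through a median of 5.61 to 9.41 RPKM. The fed PVN ranged from 0.376, its no-read value, through 0.600 to 1.63 RPKM, and did not overlap the VMH. The VMH lay 1.32 ± 0.23 above the other nuclei in fed mice (adjusted p = 7.71e-05) and 1.01 ± 0.23 in fasted mice (adjusted p = 0.00335). The fed PVN lay at -1.23 ± 0.23 (adjusted p = 0.000376). In the fed ARC, Drd1 was at 2.43, 2.06, 6.01, 2.12 and 1.36 RPKM, and in the fed DMH at 1.05, 1.55, 1.95, 5.49 and 1.23 RPKM. These neighbours did not differ beyond their spread (exact permutation p = 0.484), while the fed VMH exceeded the ARC (exact permutation p = 0.0346). Drd1 was sparse, with 9 to 94 reads in VMH libraries and 0 to 33 in PVN libraries.

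Drd2, the receptor that lowers cAMP and also serves as an autoreceptor on dopamine neurons (chromosome 9, 49340627 to 49408177), was higher in the DMH and ARC and lower in the PVN and VMH. The 5 fed DMH libraries were at 12.5, 7.30, 7.03, 5.88 and 6.46 RPKM. The 5 fed ARC libraries were at 1.61, 8.50, 5.34, 7.80 and 5.77 RPKM, the first on 3 reads. The fed VMH ranged from 0.863 through 1.94 to 6.65 RPKM and overlapped both. None of the fed nucleus differences of Drd2 passed the threshold (adjusted p from 0.154 to 0.852). The fed VMH difference of -0.84 did pass without VMH library 2 (-1.09, adjusted p = 0.0470) or ARC library 1 (-0.95, adjusted p = 0.0773). The fasted ARC libraries were at 28.9, 11.9, 8.10, 9.39 and 5.87 RPKM and the fasted DMH libraries at 7.53, 18.9, 8.04 and 10.997 RPKM. The fasted PVN libraries, at 3.04, 1.89, 4.75, 1.958 and 4.30 RPKM, lay below both. In fasted mice the VMH lay at -1.20 ± 0.35 (adjusted p = 0.0238) and the ARC at 1.12 ± 0.37 (adjusted p = 0.0841). The ARC call was lost without ARC library 1 (0.79, adjusted p = 0.410), which stood at 28.9 RPKM. In all, 11 of the 20 repeats that left out 1 fasted library lost it (ARC 1, 2 or 4, DMH 1, 3 or 4, PVN 2 or 4, VMH 2, 4 or 5). The VMH call was lost without VMH library 4 (-0.996, adjusted p = 0.108).

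Prlr, the prolactin receptor (chromosome 15, 10177238 to 10349180), was highest in the ARC and next in the VMH. The 5 fed ARC libraries were at 13.2, 15.4, 18.9, 16.2 and 18.1 RPKM. The 6 fed VMH libraries ranged from 8.29 through 9.80 to 15.2 RPKM. The 5 fasted ARC libraries, at 11.9, 15.0, 17.0, 13.6 and 17.996 RPKM, lay above the fasted VMH, which ranged from 7.27 through 7.80 to 9.60 RPKM. DMH and PVN were lower, at 5.73 ± 1.22 and 6.40 ± 1.33 RPKM in fed mice (SD, n = 5 and 6), and did not differ beyond their spread (exact permutation p = 0.364). The ARC exceeded the other nuclei by 1.06 ± 0.12 in both states (adjusted p = 3.60e-08 in fed and 5.69e-08 in fasted mice). The DMH lay at -0.77 ± 0.12 (adjusted p = 5.56e-05) and -0.67 ± 0.13 (adjusted p = 0.00235). The PVN lay at -0.59 ± 0.11 (adjusted p = 0.000330) in fed mice. Its fasted difference of -0.36 ± 0.12 was just past the threshold (adjusted p = 0.0900) and was lost in 11 of the 20 repeats that left out 1 fasted library, with adjusted p = 0.262 without PVN library 3. The others were PVN 4 or 5, ARC 2, 3 or 5, DMH 3 or 4, and VMH 2, 3 or 4.

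Choroid plexus cells also carry Prlr. Their 6 markers summed to 12.1 to 24.3 RPKM in fed ARC libraries, 9.997 to 16.8 in the fed VMH, 12.9 to 15.8 in the fed DMH and 5.69 to 13.6 in the fed PVN. In fasted ARC libraries the sum was 13.4 to 37.5 RPKM. Of the 4 markers tested, Clic6 was higher in the fed ARC (0.72, adjusted p = 0.0176), the fasted ARC (0.62, adjusted p = 0.0527) and the VMH (0.49 and 0.58, adjusted p = 0.0867 and 0.0357), and lower in the fed PVN (-1.31, adjusted p = 1.61e-06). Ttr was higher in the fasted ARC (1.25, adjusted p = 0.0401). Folr1, a defining marker, was at its no-read value in 5 of 5 fed ARC libraries. Their part in the Prlr level was not tested.

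**Figure D3:**
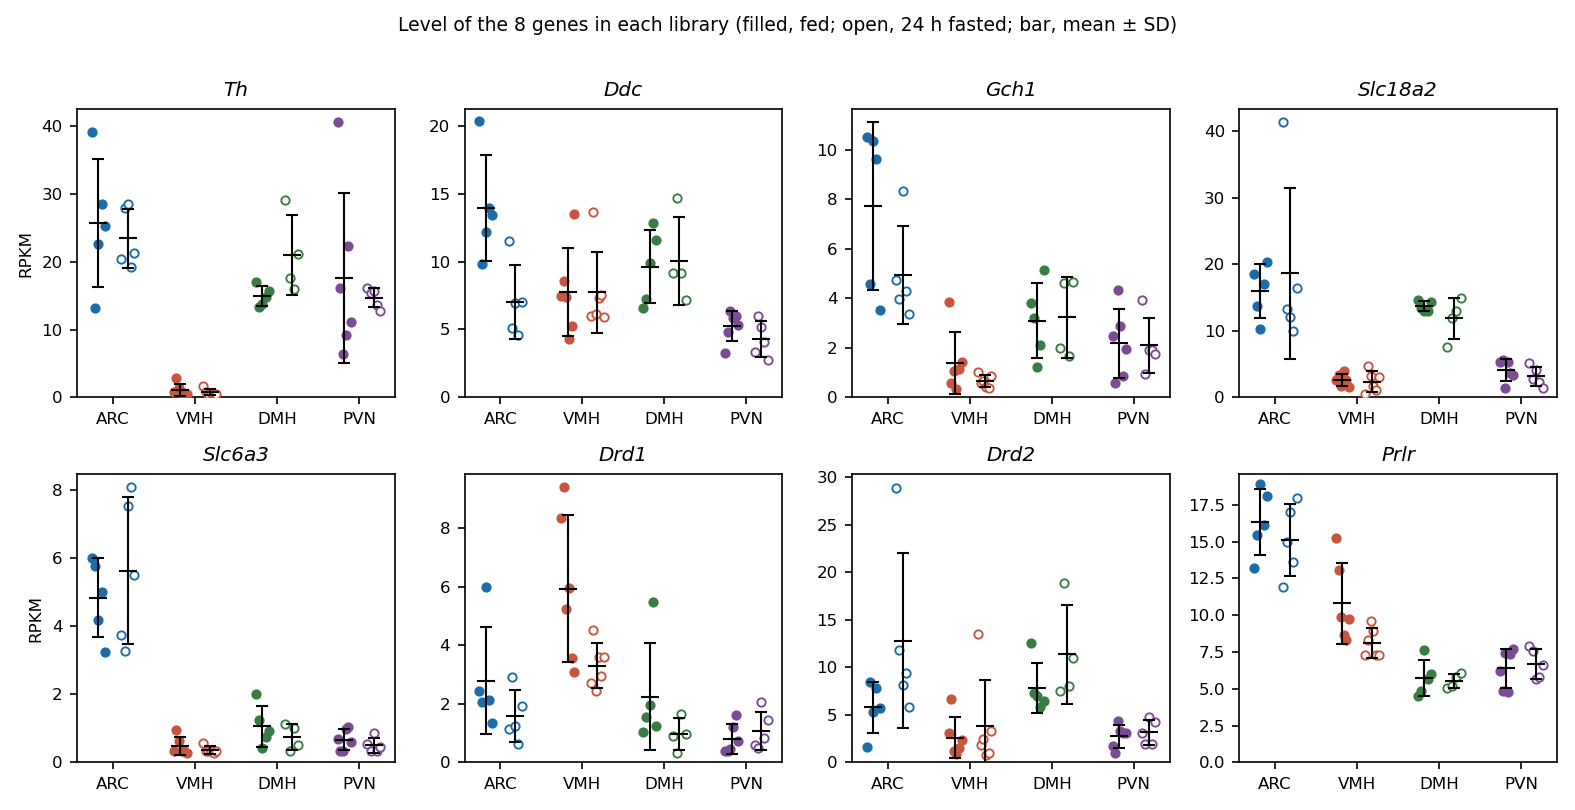
RPKM of the 8 genes in each library by nucleus, on linear axes from 0, with fed libraries filled and fasted ones open. Bars give the mean and SD of each group and are cut at 0. Slc6a3 stands clear in the ARC only, Th is near 0 in the VMH only, and Drd1 is highest in the VMH.

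The tissue labels were checked against markers of each nucleus. The summed level of each nucleus's own markers was at least 130.3 RPKM in the fed DMH, 85.3 in the fed VMH, 1012 in the fed ARC and 4622 in the fed PVN, and in every case the highest library of another fed nucleus stayed below it. DMH libraries also carried Hcrt and Pmch, markers of the lateral hypothalamus, at a sum of 269 to 1448 RPKM in fed and 401 to 631 RPKM in fasted mice, against at most 35.2 RPKM in the fed VMH. The part of neighbouring tissue in the DMH levels of Th, Slc18a2 and Drd2 was not tested. Of 4 endothelium markers, 3 were lower in the fed ARC (median -0.80) and 3 higher in the fed PVN (median 0.95). Of 6 ependyma and tanycyte markers, 2 were higher in the fed ARC, Col23a1 (1.39, adjusted p = 0.000272) and Crym (0.65, adjusted p = 0.0345). Their part in the ARC and PVN differences was not tested.

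The remaining genes of dopamine biology were taken from 9 lists of 62 genes, of which 52 were tested. The lists were chosen with earlier results of these data known. The shares of all genes given above for each nucleus (4.62% in the fed ARC, 9.82% in the fed VMH, 2.34% in the fed DMH, 5.76% in the fed PVN) are the background for the counts that follow. Of the 5 other tetrahydrobiopterin genes, 1 passed: Pcbd1, which recycles the cofactor, was higher in the ARC (0.86 in fed mice, adjusted p = 0.000465) and lower in the VMH (-1.10, adjusted p = 1.46e-06). The list had a median of 0.09 in the fed ARC, against 0.0 over all genes. Of the 6 genes of dopamine breakdown, Maob, a monoamine oxidase, was lower in the fed VMH (-0.88, adjusted p = 0.00219) and higher in the fed DMH (0.75, adjusted p = 0.0612). Aldh1a1, an aldehyde dehydrogenase of some dopamine neurons, was higher in the fed VMH (0.76, adjusted p = 0.0176) and lower in the fed PVN (-1.11, adjusted p = 0.000499). Maoa, another monoamine oxidase, passed in no comparison. The receptors Drd3, Drd4 and Drd5 passed in none of the 15 comparisons, and Drd4 was at its no-read value in 5 of 5 fed ARC libraries. Of the 2 other transporters tested, Slc22a3, which takes up monoamines with low affinity, was higher in the fed ARC (0.71, adjusted p = 0.0223).

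Of 14 transcription factors of dopamine neurons, 9 were tested. Of these, 5 were higher and 1 was lower in the fed ARC, with a list median of 1.07. Isl1 (2.14, adjusted p = 1.25e-08), Nr4a2, the Nurr1 receptor (1.69, adjusted p = 8.02e-08), and Dlx1 (1.64, adjusted p = 2.61e-06) were among the higher ones, and Onecut2 was the lower one (-0.68, adjusted p = 0.00580). In the fed VMH 4 were lower (Nr4a2, Dlx1, Dlx2 and Dlx5) and 0 were higher. In the fed DMH 3 were higher, among them Dlx1 (2.46, adjusted p = 2.34e-09), and 1 was lower, Nr4a2 (-0.83, adjusted p = 0.0140). Foxa2 and Pitx3, which mark midbrain dopamine neurons, were at their no-read value in 4 of 5 fed ARC libraries each. Among 7 co-transmitter genes of ARC neurons, 5 were higher and 1, Penk (-1.02, adjusted p = 0.000210), was lower in the fed ARC, 6 were higher in the fed DMH, and 6 were lower in the fed VMH. Gad1, which makes GABA, was at 1.93 in the ARC, 1.99 in the DMH, -2.25 in the VMH and -1.67 in the PVN (adjusted p at most 1.19e-07).

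Downstream of the receptors, 8 signalling genes of dopamine target neurons were tested. In the fed VMH, where Drd1 was highest, 3 were higher and 1 was lower. Arpp21, a cAMP-regulated phosphoprotein (1.71, adjusted p = 1.75e-11), and Adcy5, an adenylyl cyclase (0.62, adjusted p = 0.000456), were among the higher ones, and Gnal, a stimulatory G protein subunit, was lower (-0.71, adjusted p = 6.88e-06). Of 9 genes of prolactin receptor signalling, 4 were higher and 0 lower in the fed ARC, among them Socs2, a feedback inhibitor (0.73, adjusted p = 0.00725), and Esr1, the estrogen receptor (1.65, adjusted p = 4.43e-12). In the fasted ARC 2 were higher, the same Socs2 and Esr1. In the fed VMH 4 were lower, among them Stat5b, the factor that prolactin activates (-0.82, adjusted p = 0.000208).

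Fasting gave no call among the dopamine genes. Of the 8, 0 passed the limma threshold in any nucleus, where the share of all genes that passed was 0.0566% (ARC), 0.131% (VMH), 0.0238% (DMH) and 0.0715% (PVN). In limma 4 of the 32 changes had an unadjusted p under 0.05. By the exact permutation test, run for the 8 genes only, 4 did. Over all 33579 genes, 2517, 2455, 2175 and 1857 had such an unadjusted limma p in the ARC, VMH, DMH and PVN. Fed and fasted libraries overlapped in RPKM for every one of the 8 genes in every nucleus. Over all genes, 0.742% (ARC), 0.277% (VMH), 1.15% (DMH) and 0.402% (PVN) did not overlap. With shares this low, 0 of 8 says little about these genes. On reads scaled to depth alone, the states stood clear of each other for Ddc in the ARC and Th in the DMH. For Ddc the lowest fed library held 49.0 reads per M and the highest fasted one 38.7. For Th the gap was narrow, from 39.09 reads per M in the highest fed library to 39.75 in the lowest fasted one. The share of all genes that stood clear on that scale was not computed. The test of whether a change differed between nuclei also gave 0 calls (limma interaction, adjusted p = 1 for all 8), where 0.00596% of all genes passed. Of the 9 dopamine lists, 0 genes passed in the 4 fasting comparisons.

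**Figure D4:**
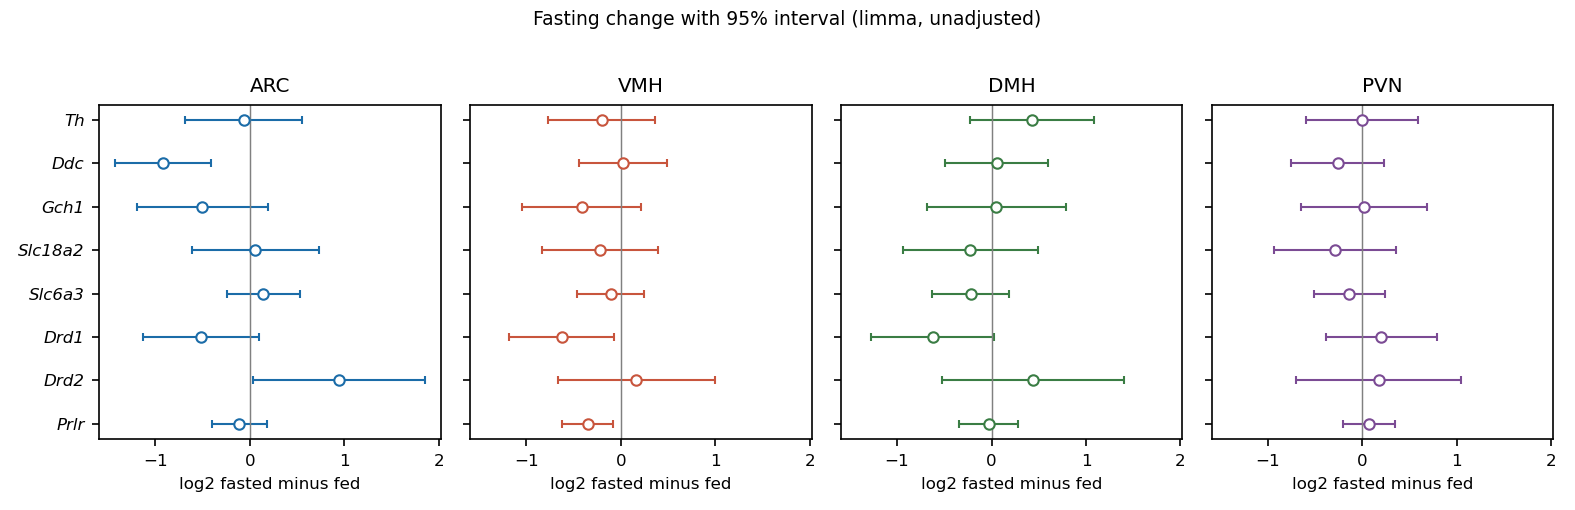
Change from fed to fasted of the 8 genes in each nucleus, on the log2(RPKM + 1) scale, with the unadjusted 95% interval of the limma fit. The interval of Ddc in the ARC lies from -1.43 to -0.41, and those of Drd1 and Prlr in the VMH and of Drd2 in the ARC also leave out 0.

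Ddc in the ARC showed the lowest adjusted p of the 32. It was at 20.4, 9.81, 12.2, 13.98 and 13.4 RPKM in fed mice and at 11.5, 5.12, 6.93, 4.57 and 6.998 RPKM in fasted mice. Only the fasted library at 11.5 RPKM overlapped the fed range, and 5 of 5 fasted libraries lay below the fed mean. The means were 13.96 ± 3.93 and 7.03 ± 2.74 RPKM (SD, n = 5 each). The difference was -0.92 ± 0.25 (adjusted p = 0.277, exact permutation p = 0.0159, the smallest possible being 0.00794). Within batches 1, 2 and 3 it was -0.77, -0.78 and -1.14. On reads scaled to depth alone, without the authors' batch adjustment, it was -1.03 (exact permutation p = 0.00794). The adjusted p ran from 0.0822 to 0.822 over 19 alternatives, and passed the threshold with array weights only. Elsewhere Ddc differed by 0.02 (VMH), 0.05 (DMH) and -0.26 (PVN), each with an adjusted p of 1.

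Th itself was at 20.5, 27.9, 28.5, 19.2 and 21.3 RPKM in the fasted ARC, within the fed range. Its change there was -0.07 ± 0.30 (95% interval -0.68 to 0.55). In the DMH, Th was at 14.9 ± 1.49 RPKM in fed and 20.97 ± 5.90 RPKM in fasted mice (SD, n = 5 and 4), with fasted libraries at 29.2, 17.6, 15.99 and 21.1 RPKM. The fasted libraries there were also the deeper ones. That change of 0.43 ± 0.32 did not pass (adjusted p = 1, exact permutation p = 0.0159), and was 0.70 in batch 2 and 0.26 in batch 3. With depth as a covariate it was 0.54, also with an adjusted p of 1. Slc6a3 in the ARC changed by 0.14 ± 0.19 (95% interval -0.25 to 0.53) and Slc18a2 by 0.05 ± 0.33 (-0.62 to 0.73). Without ARC library 1 of the fasted group, at 41.4 RPKM, the Slc18a2 change was -0.27. Gch1 in the ARC was 7.72 ± 3.38 RPKM in fed and 4.93 ± 1.97 in fasted mice (SD, n = 5 each), a change of -0.50 ± 0.34 (adjusted p = 0.886).

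Among the receptors, Drd1 in the VMH was at 5.94 ± 2.53 RPKM in fed and 3.30 ± 0.762 RPKM in fasted mice (SD, n = 6 each), with 6 of 6 fasted libraries below the fed mean. The fasted libraries ranged from 2.46 through 3.26 to 4.54 RPKM and overlapped the fed ones. The change was -0.63 ± 0.28 (adjusted p = 0.581, exact permutation p = 0.0281). Within batches it was -1.12, -0.73 and -0.03. Prlr in the VMH was at 10.8 ± 2.75 and 8.11 ± 0.996 RPKM (SD, n = 6 each), a difference of -0.35 ± 0.13 (adjusted p = 0.456, exact permutation p = 0.0325). Within batches it was -0.79, 0.00 and -0.27, so batch 2 showed none of it. Drd2 in the ARC was at 5.81 ± 2.69 and 12.8 ± 9.23 RPKM (SD, n = 5 each), a difference of 0.95 ± 0.45 (adjusted p = 0.647, exact permutation p = 0.0556). The pair in batch 1 differed by 3.51, with 3 reads in the fed and 143 in the fasted library, and batches 2 and 3 by 0.48 and 0.13.

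**Figure D5:**
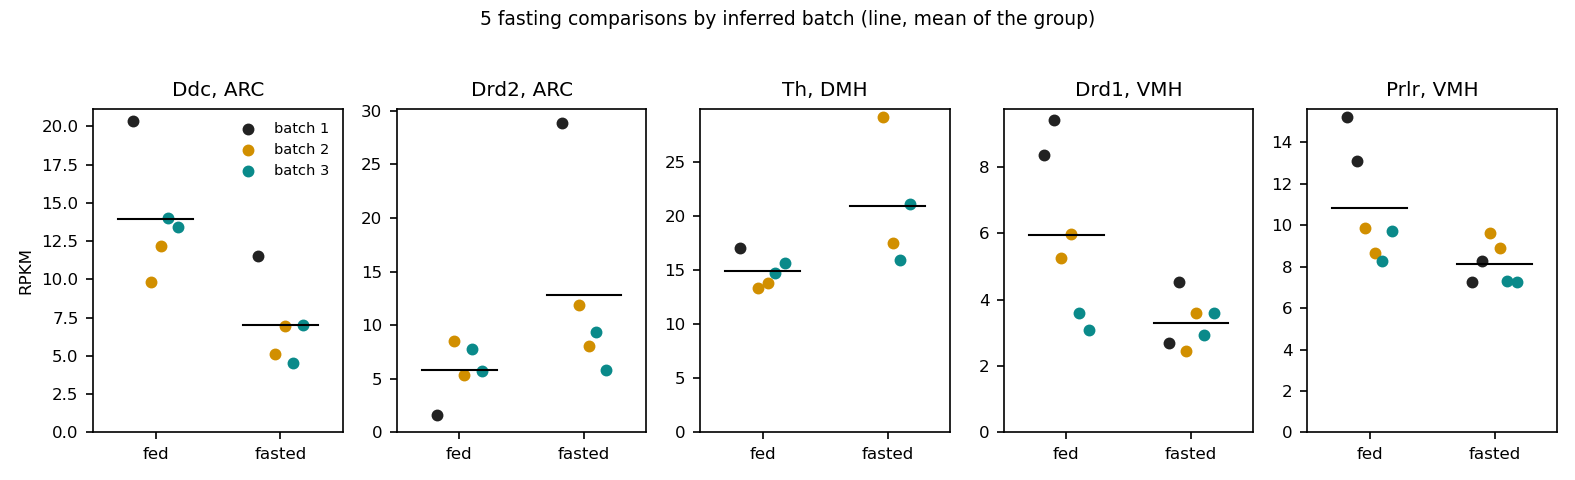
RPKM of fed and fasted libraries, on linear axes from 0, for Ddc and Drd2 in the ARC, Th in the DMH, and Drd1 and Prlr in the VMH, coloured by the inferred batch, with a line at the mean of each group. Ddc is lower in fasted libraries of all 3 batches, whereas the Drd2 difference lies mostly in batch 1.

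The genes most like each member were named by Pearson correlation of log2(RPKM + 1) over the 42 libraries, among the 17370 genes above their no-read value in at least 21 of them. Libraries of a nucleus share their make-up and batch, so these values describe a common pattern over nuclei. Th was most like Dgkk (r = 0.945), Gpr101 (0.935) and Dlk1 (0.929). Slc6a3 was most like Tbx3 (0.938), Agrp (0.932) and Irs4 (0.930), all of the ARC pattern. Slc18a2 was most like Gad1 (0.914), Fzd5 (0.898) and Plagl1 (0.881). Prlr was most like Pomc (0.855), Pak3 and Dbpht2, and Gch1 was most like Asb4 (0.803), Irs4 and AW551984. Drd1 was most like Chn1 (0.822), Gm26723 and Adgrl3. Drd2 was most like Pgr15l (0.755), Gpr50 and Tacr1, and Ddc was most like Clstn2 (0.715), Pcdh11x and Alcam. Among the members, Th and Ddc had r = 0.0793 over the same libraries, against 0.689 for Th and Slc18a2.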

How the data were processed

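RNA from nuclei cut by laser-capture microdissection was amplified (NuGEN Ovation kit) before being sequenced as unstranded single-end reads. Per the methods and the submitters' processing notes, the authors used TopHat2 2.0.11 on GRCm38, Cufflinks 2.2.1, edgeR and limma, removed outlier libraries on a multidimensional scaling plot, and prepared libraries in 3 batches. The values the authors deposited are RPKM. From the recurring lowest values it was found here that a count (5 reads in the mean library, 1.46 to 14.5) had been added and batch means removed. Reads behind a value were recovered from these.

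The 8 genes and all lists were chosen with earlier results of these data known. Values were set to log2(RPKM + 1), and a gene was kept if 4 or more libraries reached 1 RPKM, which left 33579. Limma 3.58.1 (R 4.3.3) fitted 8 group means with an intensity trend, two-sided, adjusted by Benjamini-Hochberg over all genes kept. The fits were tested on simulated data. Single comparisons also had a two-sided exact permutation test, unadjusted, 32 of them for fasting. Those between nuclei took neighbours in the order of the same values, so their p only describes the gap against the spread. Other genes were named where they passed the threshold, at most 4 per list and comparison by size. The nuclei share brains, but the labels do not say which libraries share a mouse, so libraries were treated as independent and p-values measure the spread between libraries. Same-numbered libraries did not deviate together (0 of 20 fed and fasted pairs and 0 of 58 nucleus pairs correlated over 0.1). Numbers were not used as pairs. This check could not show whether libraries share a mouse. Some same-numbered libraries lie in different batches, such as library 2 of the fed ARC (batch 2) and of the fed PVN (batch 1). Group and batch means had also been removed beforehand. Positions are from GENCODE M21. The overlap of exons with another gene was at most 2.12% of the length of any of the 8 genes, and strand was not recorded. Alternatives covered the pseudocount, filters, scaling, weights, depth, the trend, blocks and left-out libraries. Kiss1 was not analysed here. Values of some list genes are not reported here.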

Additional observations from a re-analysis of the deposited data

Results flagged for a closer look

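A library was marked where its gap to the nearest of its group was larger than Dixon's 95% limit for that group's size. Of 64 groups (8 genes in 8 groups), 11 were marked. The limit would mark about 1 in 20 groups, or 3.2, if values were normally distributed. RPKM were not put on a log scale here, and every marked library was the highest of its group. The share marked over all genes was not computed, so 11 against 3.2 does not measure an excess. Fasted VMH library 1 was marked for 3 genes, and it was the shallowest library. It held Drd2 at 13.5 RPKM on 19 reads, against 0.758 to 3.27 RPKM in the others. It held Th at 1.69 RPKM on 3 reads (others 0.429 to 0.795) and Slc6a3 at 0.577 RPKM on 1 read (others 0.286 to 0.342). Without it the fasting change of Drd2 in the VMH turned from 0.16 to -0.24, and neither passed the threshold.

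Fasted ARC library 1 was marked for Drd2, at 28.9 RPKM on 143 reads against 5.87 to 11.9 RPKM. It was also marked for Slc18a2, at 41.4 RPKM on 454 reads against 9.90 to 16.5 RPKM. Fed ARC library 5, of similar depth (4.51 against 4.49 M reads), held 456 reads of Slc18a2 at 20.4 RPKM. On reads scaled to depth alone, Slc18a2 ranged from 48.5 to 101 per M in the fasted ARC and from 44.7 to 101 in the fed ARC. Its no-read value was 0.444 RPKM in batch 1, 0.246 in batch 2 and 0.219 in batch 3. The other marked values rested on single libraries. Gch1 in fasted ARC library 3 and Drd1 in fed ARC library 3 lay in batch 2. Drd1 in fed DMH library 4 lay in batch 3. All the rest of the marked values lay in batch 1, which held 10 of the 42 libraries. Ddc was at 13.7 RPKM in fasted VMH library 2 (others 5.91 to 7.53). Gch1 was at 8.34 RPKM in fasted ARC library 3 (others 3.35 to 4.72) and at 3.83 RPKM in fed VMH library 1 on 12 reads (others 0.331 to 1.41). Drd1 was at 6.01 RPKM in fed ARC library 3 (others 1.36 to 2.43) and at 5.49 RPKM in fed DMH library 4 (others 1.05 to 1.95). Drd2 was at 12.5 RPKM in fed DMH library 1 on 47 reads (others 5.88 to 7.30). No cause was tested for any of them.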

How the results depend on the processing

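Of 418 recomputed counts of genes past the threshold, 417 stayed within 1.5 times the count given above. The exception was the ARC fasting count, which became 1 (Ddc, -1.02, adjusted p = 0.0822) with array weights. Of 54 calls of single genes, none changed direction and 9 were lost under at least 1 alternative. With the state and replicate number as a replicate block, the counts were 6, 5, 2 and 6 in the fed and 5, 6, 2 and 3 in the fasted ARC, VMH, DMH and PVN, where the calls lost were Drd2 in the fed F test (adjusted p = 0.125), Drd2 in the fasted ARC (0.116), Slc18a2 in the fasted DMH (0.155) and Prlr in the fasted PVN (0.145). Calls were also gained, among them Drd2 in the fed VMH. It passed with array weights (adjusted p = 0.0492), depth as a covariate (0.0943) and a filter of 5 RPKM in 4 libraries (0.0985). Others were Th in the fed DMH (0.0557) and the fasted PVN (0.0449) with array weights, and Prlr in the fed VMH (0.0715) with median centring. With the number as a block in the fasting comparisons, 0 genes passed in each nucleus, as without it.

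Reversals touched small differences without a call. With a pseudocount of 0.1 they were Drd1 in the fasted ARC (0.0039) and the Th change in the PVN (0.0059). With array weights the fasting changes were -0.16 for Slc18a2 in the ARC, -0.11 for Ddc in the VMH, -0.0313 for Ddc and -0.10 for Gch1 in the DMH, 0.081 for Th and -0.0192 for Prlr in the PVN. With depth as a covariate they were 0.0175 for Ddc in the fasted ARC and 0.0049 for the Th change in the PVN. With the replicate block the Gch1 change in the DMH was -0.0038. On reads scaled to depth without the batch adjustment, an alternative chosen after seeing the data, the Th change in the PVN was 0.0584 and the Prlr change in the DMH 0.0425.

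Leaving out 1 library at a time gave these ranges where a sign turned: Ddc in the fasted ARC -0.18 to 0.11, Drd1 in the fed ARC -0.12 to 0.27 and in the fasted ARC -0.21 to 0.10, and Gch1 in the fed DMH -0.12 to 0.25. The fasting changes that turned ranged from -0.28 to 0.10 (Th, ARC), -0.22 to 0.27 (Th, PVN), -0.27 to 0.22 (Slc18a2, ARC), -0.14 to 0.18 (Ddc, VMH), -0.13 to 0.19 (Ddc, DMH), -0.15 to 0.24 (Gch1, DMH), -0.17 to 0.19 (Gch1, PVN), -0.24 to 0.41 (Drd2, VMH), -0.00024 to 0.29 (Drd2, PVN) and -0.10 to 0.0638 (Prlr, DMH). The causes were not tested. Depth limits the genes with few reads, such as Slc6a3 outside the ARC and Th in the VMH. The read counts cover counting error only and come from amplified material.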
